A study of Mus musculus with 6 samples.

Results

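The protein-coding genes of mouse chromosome 6 that were well expressed in 4T1 cells are described here, 247 of the 26094 genes listed. They were chosen as the protein-coding genes annotated on chromosome 6 (mm10) whose listed transcripts summed to a mean of at least 10 FPKM over all 6 libraries. FPKM is a fragment count scaled to transcript length and to all mapped fragments of the library. Of 278 such genes, 31 were left out by name, either by the start of the symbol (Zfp, Psm, Rpl and others) or singly (such as Hk2, Ldhb and Mcm2). The chromosome was picked with its tendency to lower values already known, so the counts and medians over its genes are descriptions and carry no test of their own. Just inside the limit lay Epha1 (mean 10.1 FPKM) and Slc37a3 (10.2 FPKM), and just outside lay Tamm41 (9.93 FPKM) and Hdac11 (9.88 FPKM).

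4T1 is a mouse mammary carcinoma line that metastasizes readily in its host strain. Limch1_OE (n = 3 libraries) denotes 4T1 cells with stable lentiviral expression of mouse Limch1 from the PLVX-ires-neo vector, and Vector (n = 3 libraries) denotes 4T1 cells with the empty vector. Both lines were infected with virus packaged in HEK293T cells with psPAX2 and pMD2.G, were put under antibiotic selection 48 h later and became stable lines. The labels do not say whether a line is a clone or a pool, or whether the libraries of a group are separate cultures. A p-value therefore sets the group difference against the variation among these libraries only, and that variation may be technical.

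Limch1, which is on chromosome 5, was at 23.96, 23.31 and 25.69 FPKM in Limch1_OE and at 0.25, 0.15 and 0.1 FPKM in Vector, as the titles say. All FPKM of a Limch1_OE library came to 421767 to 425064, those of a Vector library to 414837 to 416242, and the sequencing depth is unknown. The 5 epithelial markers (Cdh1, Epcam, Krt8, Krt14 and Krt18) came to 1183 to 1308 FPKM per Limch1_OE library, against 1261 to 1301 per Vector library. Krt18 held the largest part of this sum. Epcam was at 79.44, 80.61 and 74.33 FPKM in Limch1_OE and at 105.52, 109.72 and 104.32 FPKM in Vector (-0.44, limma adjusted p = 2.45e-04), and Cdh1 fell by 0.18 (limma adjusted p = 0.0143). Krt18 (0.14), Krt14 (-0.11) and Krt8 (-0.09) did not pass the test, and the part of these markers in the results below was not tested. Of the markers of other cells, 3 of 5 leukocyte, 1 of 4 fibroblast and 4 of 4 endothelial genes were listed, and each stayed under 1 FPKM in every library.

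Genes of one chromosome share a DNA molecule and not a pathway, and their products do unrelated work. Mouse chromosome 6 carries the growth factor receptor gene Met, the Hoxa cluster, the immunoglobulin kappa locus and the natural killer receptor genes, beside housekeeping genes of the ribosome, the secretory pathway and the mitochondrion. Which of these genes are heard in a carcinoma line depends on the cell type, and lymphoid and neuronal genes of the chromosome are silent in most epithelial cells.

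The well-expressed genes of chromosome 6 were mostly lower in Limch1_OE, by small amounts. Of the 247 members, 104 fell and 9 rose at a limma adjusted p under 0.05, and 134 were not called. The members called lower made up 42.1% of the 247, against 14.4% of all 11842 tested genes and 17.4% of 5645 protein-coding genes of the other chromosomes chosen by the same level and names. The members called higher made up 3.64%, against 20.2% of all tested genes and 21.5% of those other genes. The median log2 difference (Limch1_OE minus Vector, on the log2(FPKM + 1) scale) was -0.14 over the members, 0.04 over all tested genes and 0.02 over the comparable genes of the other chromosomes. A negative difference was seen in 194 members (78.5%), against 45.3% of the comparable genes. In a bulk sample, fewer cells of a type and less RNA per cell cannot be told apart, and FPKM is relative to the rest of the library.

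The change was spread over many genes and was not carried by a few large ones. The median percent change of mean FPKM over the members was -9.64%. No member reached a log2 difference of 1 in either direction: 49 of the 104 genes that fell did so by at least 0.3, and 11 by at least 0.5. The median standard error of a member's difference was 0.06, so that a shift of the size of the median is near the limit of what 3 libraries a group resolve for a single gene. In 135 members (54.7%) all 3 Limch1_OE libraries lay below all 3 Vector libraries, against 20.5% of all tested genes. In 19 members (7.69%) they lay above, against 28.6% of all tested genes. For any single gene without overlap the exact two-sided permutation test cannot go below p = 0.1 with this design.

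Each library showed the shift. Relative to the mean of the 3 Vector libraries, the median member stood at -0.14, -0.14 and -0.15 on the log2 scale in Limch1_OE replicates 1, 2 and 3. Each Vector library, set against the mean of the other Vector libraries, had a median member at -0.005, -0.005 and 0.015. The same quantity over the comparable genes of the other chromosomes was 0.02, 0.03 and 0.01 in Limch1_OE, against -0.005, 0.005 and 0.002 in Vector. The members together took 2.38%, 2.45% and 2.44% of all FPKM in Limch1_OE, against 2.77%, 2.78% and 2.81% in Vector, and these shares did not overlap.

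**Figure D1:**
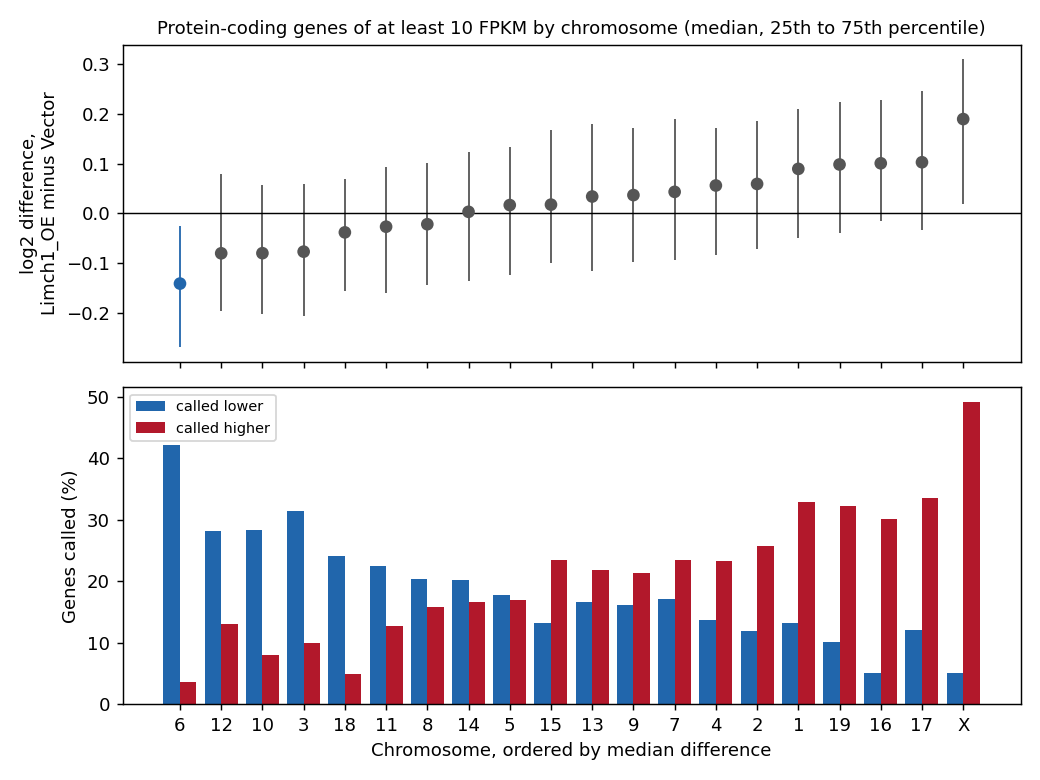
Upper panel, median log2 difference (Limch1_OE minus Vector, log2(FPKM + 1) scale; bars from the 25th to the 75th percentile) of protein-coding genes of at least 10 FPKM on each chromosome. Lower panel, percentage of these genes called lower and called higher. Chromosome 6, in blue at the left, has the lowest median (-0.14), with 42.1% of its genes called lower and 3.64% called higher.

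Among the 20 chromosomes with at least 20 genes of this kind, chromosome 6 had the lowest median. Chromosomes 12, 10 and 3 followed at -0.08 each, with 28.1%, 28.2% and 31.4% of their genes called lower. At the other end stood the X chromosome, with a median of 0.19 and 49.0% of its genes called higher. Chromosome 6 stayed lowest in all 16 settings of normalization, filter and libraries that were run. These were fits of the same libraries in which the chromosome was picked, so they add no independent evidence. The difference between the members and the comparable genes was seen at every level of expression. Members between 10 and 20 FPKM had a median of -0.14 (38.1% called lower), against 0.04 (13.2%) for comparable genes. From 20 to 50 FPKM the members' median was -0.15 (42.9%), against 0.02 (17.8%), and from 50 FPKM it was -0.13 (48.1%), against 0.00 (25.6%).

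The other genes of the chromosome gave the following values. The 31 genes left out by name had a median of -0.21, with 15 called lower and 2 called higher (48.4% and 6.45%). The 182 tested protein-coding genes of chromosome 6 under 10 FPKM had a median of -0.04, with 30 called lower and 11 called higher (16.5% and 6.04%). Those of the other chromosomes under 10 FPKM had a median of 0.06, with 11.4% called lower and 19.3% called higher. The 78 tested genes of other types on chromosome 6, mostly noncoding, had a median of 0.03, with 9 called lower and 12 called higher (11.5% and 15.4%). All tested genes had a median of 0.04, with 14.4% called lower and 20.2% called higher, so these 78 genes did not show the lower median of the members.

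**Figure D2:**
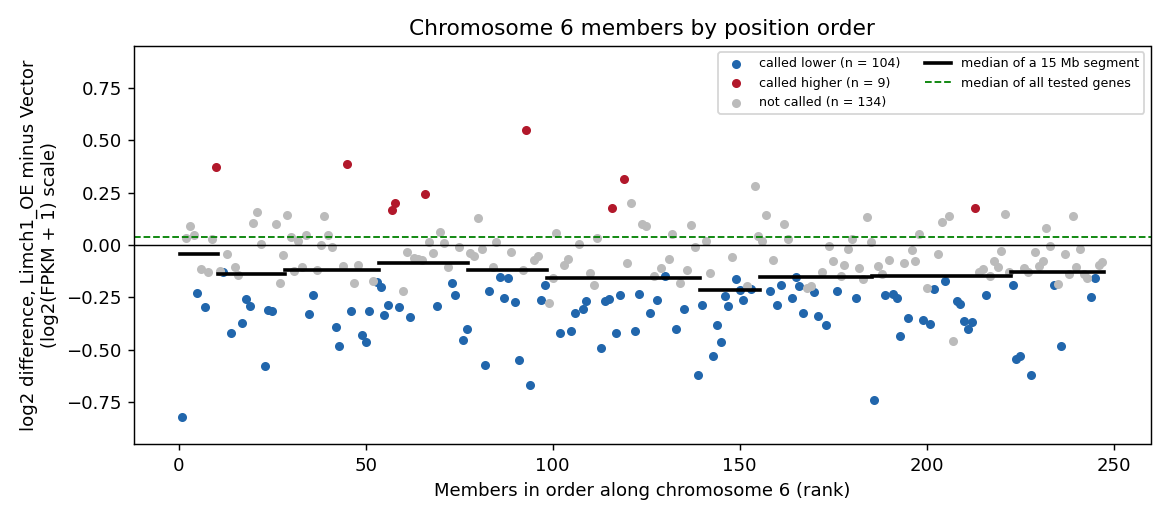
Log2 difference (Limch1_OE minus Vector, log2(FPKM + 1) scale) of each of the 247 members against its rank in order along chromosome 6. Blue, red and grey points are members called lower, called higher and not called; black lines are medians of 15 Mb segments and the green line is the median of all tested genes (0.04). All 10 segment medians lie below 0, between -0.21 and -0.04.

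Within the chromosome the lower values were not gathered in 1 place. Cut into 15 Mb segments by gene start, the 10 segments held between 10 and 41 members each, and every segment median was negative. Over all members 42.1% were called lower and 3.64% higher, against 14.4% and 20.2% of all tested genes. The lowest median was -0.21 for 16 members from 90 to 105 Mb (Zxdc to Ppp4r2), of which 10 fell (62.5%) and none rose. The highest was -0.04 for 10 members in the first 15 Mb (Gng11 to Tmem106b), of which 3 fell (30%) and 1 rose (10%). The segment with the most members, from 75 to 90 Mb (Pole4 to Chchd6), had 18 of 41 lower (43.9%) and 2 higher (4.88%), near the shares of all members. With segments of 10 Mb, the lowest median among those with at least 10 members was -0.24, from 40 to 50 Mb, so the place of the lowest segment depended on where the segments were cut.

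Members next to each other did not resemble each other much in size. Across 246 pairs of adjacent members, Pearson's r of the log2 differences was 0.05 and Spearman's rank correlation 0.11, as a description over genes measured in the same 6 libraries. The longest unbroken run of negative differences held 16 members, from Mtmr14 to March8 (chromosome 6, 113237843 to 116409540). With 78.5% of all members negative, a long run does not by itself mark a block, and its length was not tested. The gene with the largest rise, Mat2a, lay beside Capg, which had the third lowest difference, and on its other side lay Vamp8, at -0.12 (limma adjusted p = 0.339).

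The lowest members had varied roles, although Capg, Arhgdib, Gprc5a, Fbln2 and Emp1 were on the actin, adhesion and cell surface list described below. Gng11 (ENSMUSG00000032766 in the annotation; chromosome 6, 4003904 to 4008445, plus strand) encodes a gamma subunit of heterotrimeric G proteins. It was at 7.78, 8.25 and 9.32 FPKM in Limch1_OE and at 14, 15.95 and 17.09 FPKM in Vector. The groups did not overlap, and the log2 difference of -0.82 (SE 0.09, limma adjusted p = 2.26e-04) was the lowest of the members. Its neighbour Bet1, a SNARE of traffic between endoplasmic reticulum and Golgi, averaged 13.4 ± 0.294 FPKM in Limch1_OE, against 13.1 ± 0.485 FPKM in Vector (SD, n = 3 each; limma adjusted p = 0.668).

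B4galnt3 (120203073 to 120294559, minus strand) encodes an N-acetylgalactosaminyltransferase that builds terminal LacdiNAc on glycans. It was at 12.82, 14.56 and 13.15 FPKM in Limch1_OE and at 23.41, 23.18 and 22.88 FPKM in Vector. The Vector libraries were close together, and the log2 difference was -0.74 (SE 0.06, limma adjusted p = 3.91e-05). The members next to B4galnt3, Wnk1, a kinase of ion transport (0.02), and the histone demethylase gene Kdm5a (-0.10), did not pass the test. The stretch before its RefSeq start is shown because B4galnt3 is among the lowest members, and Mat2a, the highest member, is shown beside it.

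B4galnt3 (chr6:120294898-120295147, minus strand): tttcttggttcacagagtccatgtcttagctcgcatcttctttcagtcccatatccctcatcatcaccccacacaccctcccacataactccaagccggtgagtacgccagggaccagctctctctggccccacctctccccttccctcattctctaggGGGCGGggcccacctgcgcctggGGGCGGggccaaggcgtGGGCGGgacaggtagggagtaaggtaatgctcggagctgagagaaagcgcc
Mat2a (chr6:72439557-72439806, minus strand): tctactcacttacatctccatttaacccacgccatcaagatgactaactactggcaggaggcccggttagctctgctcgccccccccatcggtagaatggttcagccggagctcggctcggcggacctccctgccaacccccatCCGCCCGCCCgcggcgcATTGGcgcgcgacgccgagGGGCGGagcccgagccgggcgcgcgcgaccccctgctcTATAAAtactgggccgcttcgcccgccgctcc

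Both are the 250 bases before the start in RefSeq's GRCm38.p6 annotation, the assembly that mm10 names, read 5′ to 3′ on the gene's strand; for B4galnt3 that start lies 338 bases upstream of the GENCODE one used above. Capitals mark matches on either strand to 6 motifs. The GC box was searched as GGGCGG. The motif of ETS family transcription factors, which are common at housekeeping promoters, was searched as CCGGAAG. The TATA box, which places the start of transcription at some genes, was searched as TATAAA. The CCAAT box was searched by its name's letters, and the NRF1 motif and the core of the interferon-stimulated response element were the others. B4galnt3 held 3 GC boxes and no other motif of the 6. Mat2a held GC boxes, a CCAAT box and a TATA box close to its start. A match describes the letters and says nothing of what binds.

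Capg (72544391 to 72562983, plus strand), which encodes a gelsolin-family protein that caps actin filaments, was at 166.29, 199.1 and 195.43 FPKM in Limch1_OE and at 293.38, 296.33 and 300.73 FPKM in Vector. The groups were far apart for a gene of this level, with a log2 difference of -0.67 (SE 0.07, limma adjusted p = 1.75e-04). Of its listed transcripts, Capg-202 and Capg-201 carried most of the sum and traded shares between libraries, and with the most abundant one alone the difference was -0.66 but no longer passed the test (limma adjusted p = 0.1004). The call was lost with 1 transcript, without a change of sign, for other members too. Among them were Fbln2 (-0.51), Emp1 (-0.37), Rab11fip5 (-0.14), Lrig1 (-0.10), Stambp (-0.28), Tmem106b (0.36), Tmem176a (0.21) and Tspan9 (0.12). Zyx (-0.20), Ezh2 (-0.55), Nt5c3 (-0.45) and Cnot4 (-0.29), described below, lost it as well.

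The next among the 12 lowest members were Arhgdib (-0.62), a GDP-dissociation inhibitor of small GTPases best known from blood cells, and Chchd6 (-0.62), a subunit of the complex that shapes mitochondrial cristae. Hilpda (-0.58), which encodes a lipid droplet protein induced in hypoxia, came after them. Rnf181 (-0.55), a ubiquitin ligase gene, Gprc5a (-0.54), an orphan receptor of epithelia, the matrix gene Fbln2 (-0.53), the membrane protein gene Emp1 (-0.53) and Rab11fip5 (-0.49), an effector of Rab11 in recycling endosomes, were also among them. In all 12 the libraries of the groups did not overlap, against 20.5% of all tested genes with Limch1_OE below Vector. The limma adjusted p-values lay between 3.91e-05 and 0.00239. Both follow largely from the choice of the 12 as the lowest called members, so neither is further evidence.

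Among these, Emp1, at a mean of 388 FPKM one of the most abundant members, was at 315.4, 331.88 and 303.85 FPKM in Limch1_OE and at 465.05, 446.34 and 463.74 FPKM in Vector. Rab11fip5 was at 28.36, 29.97 and 29.89 FPKM in Limch1_OE and at 41.44, 42.92 and 40.68 FPKM in Vector. The fall of Rab11fip5 was mostly that of 1 transcript: Rab11fip5-202 was at 8.44, 10.1 and 10.61 FPKM in Limch1_OE and at 18.82, 20.86 and 19.73 FPKM in Vector. Rab11fip5-201 was at 19.92, 19.85 and 19.28 FPKM in Limch1_OE and at 22.62, 22.06 and 20.95 FPKM in Vector.

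**Figure D3:**
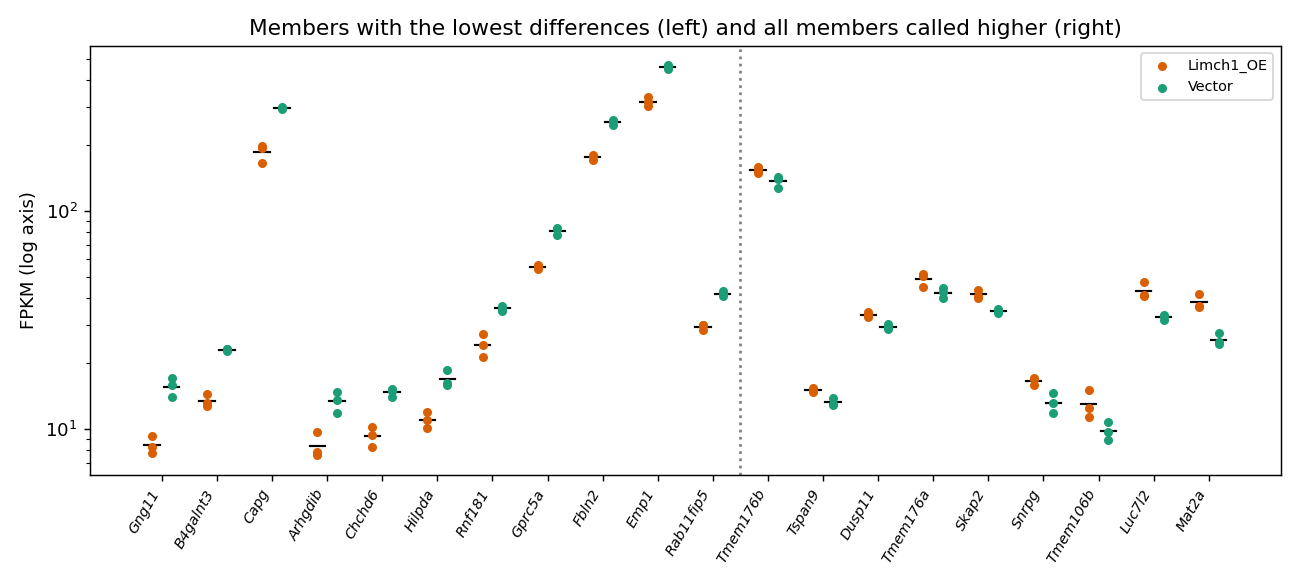
FPKM (log axis) in each library for 11 of the 12 members with the lowest differences, left of the dotted line, and the 9 members called higher, right of it. Orange points are the 3 Limch1_OE libraries and green points the 3 Vector libraries, with black lines at the group means. In each of these 20 genes the groups do not overlap, which follows largely from their choice by call and size.

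The 9 members that rose did so by less for the most part. Mat2a (72432799 to 72439558, minus strand), the catalytic subunit gene of the enzyme that makes S-adenosylmethionine, was at 41.57, 36.57 and 36.21 FPKM in Limch1_OE and at 25, 27.69 and 24.48 FPKM in Vector. Its log2 difference was 0.55 (SE 0.07, limma adjusted p = 6.11e-04). Luc7l2, a U1-associated splicing factor gene, was at 47.18, 41.08 and 40.82 FPKM in Limch1_OE and at 31.59, 33.2 and 33.05 FPKM in Vector (0.39). Its sum was split over many transcripts, and the most abundant of them, holding 23.7% of it, did not pass the test (0.18, limma adjusted p = 0.457). The noncoding transcripts Luc7l2-203, Luc7l2-204, Luc7l2-206 and Luc7l2-210 had higher means in Limch1_OE. Luc7l2-203 was at 13.21, 8.28 and 9.98 FPKM in Limch1_OE and at 5.05, 6.72 and 7.52 FPKM in Vector. Of the protein-coding ones, Luc7l2-201 and Luc7l2-208 had higher means in Limch1_OE and Luc7l2-207 and Luc7l2-213 lower means. The rise of the sum is therefore no measure of protein-coding Luc7l2 mRNA.

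The lysosomal membrane gene Tmem106b rose by 0.37, the spliceosomal Sm protein gene Snrpg by 0.32 and the adaptor gene Skap2 by 0.25. Tmem176a (0.20), Dusp11 (0.18), which encodes an RNA 5'-phosphatase, the tetraspanin gene Tspan9 (0.18) and Tmem176b (0.17) were the others, with limma adjusted p-values between 0.0207 and 0.0394. Tmem176a and Tmem176b lie head to head with overlapping ends on opposite strands, and because the use of strand is not given their reads may not be told apart. Mat2a, Luc7l2, Snrpg and Skap2 were the 4 that stayed called in each of the 6 fits that left out a library; the other 5 lost the call in at least 1. Tmem176a, Tmem176b, Dusp11 and Tspan9 were no longer called under the trimmed mean of M values, and 71 of the 104 members that fell stayed called in each fit without a library.

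Members were also read by functional list, and no list was tested as a set. Over all members 42.1% were called lower and 3.64% higher, against 14.4% and 20.2% of all tested genes. Among lists with at least 5 members the share called lower ran from 26.3% (ubiquitin, chaperones and protein turnover) to 66.7% (cytokine, death receptor and innate signalling). Those of chromatin (45.8%) and mitochondria (40.6%) lay near that of all members. The growth factor signalling list had 11 members, with 4 lower (36.4%), none higher and a median of -0.14. Tgfa, a ligand of the EGF receptor, was at 11.11, 11.42 and 9.79 FPKM in Limch1_OE and at 15.5, 14.9 and 13.83 FPKM in Vector (-0.42, SE 0.07, limma adjusted p = 0.00304). The ephrin receptor gene Epha1 fell by 0.32 and Lrig1, which restrains EGF receptor signalling, by 0.16. The hepatocyte growth factor receptor gene Met averaged 25.8 ± 2.95 FPKM in Limch1_OE, against 26.6 ± 0.945 FPKM in Vector (SD, n = 3 each; limma adjusted p = 0.691). Neither did the hedgehog transducer Smo (-0.18), the Wnt co-receptor Lrp6 (0.15), Rassf8 (-0.14), Eps8 (-0.03) or Wnk1 (0.02) pass the test.

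Of 6 members on the cytokine, death receptor and innate signalling list 4 fell and none rose (median -0.25). Casp2, an initiator caspase gene, was at 16.35, 15.85 and 16.54 FPKM in Limch1_OE and at 21.84, 21.82 and 22.95 FPKM in Vector (-0.43, SE 0.05, limma adjusted p = 4.14e-04). Tnfrsf1a, the gene of TNF receptor 1, was at 24.82, 23.98 and 24.47 FPKM in Limch1_OE and at 30.78, 30.1 and 28.83 FPKM in Vector (-0.28). Neither gene had overlapping groups. Ltbr, the lymphotoxin beta receptor gene, fell by 0.27 and the BCL2-like gene Bcl2l13 by 0.24.

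The actin, adhesion and cell surface list had the lowest median of the lists with at least 5 members, -0.31, with 13 of 23 lower and 1, Tspan9, higher. Besides Capg, Arhgdib, Gprc5a, Fbln2 and Emp1, the zyxin gene Zyx fell by 0.46 and the capping protein gene Capza2 by 0.42. Wasl, the N-WASP gene, fell by 0.37 and the tetraspanin gene Cd9 by 0.36. Zyx overlaps Epha1 on the other strand. Tmsb10, which encodes the actin-binding thymosin beta 10 and stood outside the list, was at 248.02, 271.81 and 273.17 FPKM in Limch1_OE and at 313.64, 328.97 and 307.64 FPKM in Vector (-0.26, limma adjusted p = 0.00695).

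**Figure D4:**
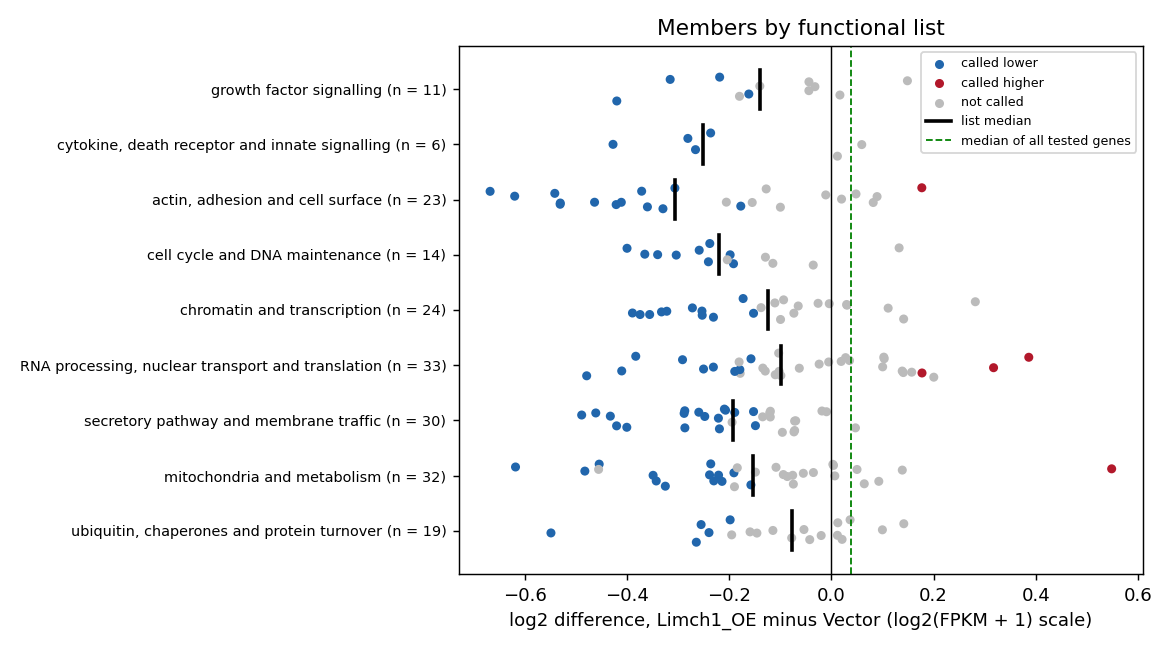
Log2 difference (Limch1_OE minus Vector, log2(FPKM + 1) scale) of members on the 9 functional lists with at least 5 members, 1 point per gene, blue where called lower, red where called higher and grey where not called. Black bars are list medians, from -0.31 for actin, adhesion and cell surface to -0.08 for ubiquitin, chaperones and protein turnover, all left of the median of all tested genes (green, 0.04).

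In the secretory and membrane traffic list 17 of 30 members fell and none rose (median -0.19), and 29 had a negative difference. Rpn1, a subunit of the oligosaccharyltransferase, was at 55.05, 56.11 and 57.46 FPKM in Limch1_OE and at 74.21, 72.5 and 76.91 FPKM in Vector, without overlap (-0.40, SE 0.04, limma adjusted p = 2.81e-04). The nuclear envelope gene Tmem43 fell by 0.46, the clathrin-associated Necap1 by 0.43, the small GTPase gene Arf5 by 0.29 and the protein disulfide isomerase gene Pdia4 by 0.29. Copg2, a coatomer subunit gene and the sole member on the list of imprinted genes, averaged 21.4 ± 0.156 FPKM in Limch1_OE, against 20.7 ± 0.417 FPKM in Vector (SD, n = 3 each; limma adjusted p = 0.476). Of the vacuolar ATPase subunit genes, Atp6v1f fell by 0.32 and Atp6v1e1 (-0.14) did not pass.

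Of 14 cell cycle and DNA maintenance members 9 fell and none rose (median -0.22). The cyclin gene Ccnd2 was at 29.08, 28.69 and 28.07 FPKM in Limch1_OE and at 36.31, 36.67 and 38.51 FPKM in Vector (-0.37, SE 0.05, limma adjusted p = 6.46e-04). Fancd2, of the Fanconi anaemia crosslink repair pathway, was at 9.1, 8.69 and 9.08 FPKM in Limch1_OE and at 11.8, 11.75 and 11.27 FPKM in Vector (-0.34, limma adjusted p = 0.00259). The homologous recombination gene Rad51ap1 fell by 0.40 and the mitotic transcription factor gene Foxm1 by 0.24. Cdkn1b, which encodes the cell cycle inhibitor p27, did not pass (-0.13, limma adjusted p = 0.23).

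Of 24 chromatin and transcription members 11 fell and none rose (median -0.12). The co-repressor gene Atn1 averaged 45.6 ± 0.704 FPKM in Limch1_OE, against 58.8 ± 3.92 FPKM in Vector, and Ptms, which encodes parathymosin, 41.2 ± 2.99 FPKM in Limch1_OE, against 53.7 ± 1.62 FPKM in Vector (SD, n = 3 each; -0.36 and -0.37). Ezh2, the histone H3 lysine 27 methyltransferase gene, fell by 0.33, and Cnot4, a ubiquitin ligase gene of the CCR4-NOT complex, by 0.39. Chd4, the helicase gene of the NuRD complex, fell by 0.17, with its annotated principal transcript not listed.

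Of 33 members on the list of RNA processing, nuclear transport and translation 9 fell (27.3%) and 3 rose, with a median of -0.10. The 3 that rose (Luc7l2, with the mixed transcripts described above, Snrpg and Dusp11) were the most of any list. They made up 9.09% of it, against 20.2% called higher among all tested genes. Nup205, a scaffold nucleoporin gene, was at 21.96, 21.72 and 22.65 FPKM in Limch1_OE and at 30.98, 30.36 and 32.34 FPKM in Vector (-0.48, SE 0.05, limma adjusted p = 1.68e-04). Pcbp1, an intronless poly(C)-binding protein gene, was at 114.36, 122.45 and 125.87 FPKM in Limch1_OE and at 156.3, 168.53 and 158.2 FPKM in Vector (-0.41, limma adjusted p = 6.52e-04). Several of the most abundant members were RNA-binding protein genes that did not pass the test. Serbp1 averaged 436 ± 9.40 FPKM in Limch1_OE, against 443 ± 3.87 FPKM in Vector, and Hnrnpa2b1 363 ± 14.6 FPKM in Limch1_OE, against 380 ± 18 FPKM in Vector (SD, n = 3 each). Hnrnpf (0.03) and Cnbp (-0.11) did not pass either, although the Cnbp groups did not overlap.

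In the mitochondria and metabolism list 13 of 32 members fell and 1, Mat2a, rose (median -0.15). After Chchd6 the lowest were Etnk1 (-0.48), which starts phosphatidylethanolamine synthesis, and the nucleotidase gene Nt5c3 (-0.45). Cycs, the cytochrome c gene, fell by 0.34. Gapdh lies on this chromosome too, and its listed sum was 8.48, 8.35 and 9.04 FPKM in Limch1_OE, against 9.57, 9.39 and 19.92 FPKM in Vector. Most of it came from a retained-intron transcript, part of the gene's principal transcripts were not listed, and Vector replicate 3 stood apart, so this sum is no measure of Gapdh mRNA. Of 19 members on the list of ubiquitin, chaperones and protein turnover 5 fell and none rose (median -0.08), among them Rnf181 and the deubiquitinase gene Stambp (-0.26), while 14 were not called.

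Neighbouring genes that start back to back can share a promoter, and 12 pairs of members on opposite strands started within 1000 bases of each other. In 4 of them the starts overlapped, so that reads near the starts may not be told apart where strand was not used. In 8 pairs both differences were negative, in 1 both were positive and in 3 the signs were opposite. Over all members 78.5% had a negative difference and 42.1% were called lower, so the pair counts do not show that partners move together. Both genes rose in 1 pair, Tmem176b and Tmem176a, whose starts overlap. Both genes fell in 2 pairs. Xpc, a DNA damage sensor gene, was at 14.92, 15.83 and 15.42 FPKM in Limch1_OE and at 17.53, 18.4 and 19.2 FPKM in Vector (-0.24, limma adjusted p = 0.0113). Its partner Lsm3, a gene of the U6 snRNA-binding ring, was at 30.47, 29.95 and 32.82 FPKM in Limch1_OE and at 35.28, 38.65 and 41 FPKM in Vector (-0.29, limma adjusted p = 0.00923). The other pair was Fancd2 with Emc3, a gene of the complex that inserts membrane proteins into the endoplasmic reticulum, which fell by 0.22.

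The 3 pairs with opposite signs were Mthfd2 with Mob1a, Htra2 with Aup1 and Ints13 with Fgfr1op2. Aup1, a gene of lipid droplets and protein quality control in the endoplasmic reticulum, was at 47, 39.91 and 47.64 FPKM in Limch1_OE and at 65.62, 59.57 and 55.79 FPKM in Vector (-0.42, limma adjusted p = 0.00493). This sum mixes directions. Its most abundant transcript, Aup1-201, fell by 1.60 (limma adjusted p = 0.0143). The noncoding transcripts Aup1-206 and Aup1-215 averaged 16.4 and 12.1 FPKM in Limch1_OE, against 11.1 and 8.97 FPKM in Vector, with overlapping groups. Noncoding Aup1-212 and Aup1-204 had lower means in Limch1_OE. Htra2, a mitochondrial protease gene that overlaps Aup1, was at 25.95, 26.17 and 28.62 FPKM in Limch1_OE and at 25.8, 24.4 and 27.16 FPKM in Vector, overlapping (0.06, limma adjusted p = 0.481). Neither Ints13 (0.14) nor Fgfr1op2 (-0.11) passed the test. Mob1a, a gene of the Hippo kinase cascade, was at 47.93, 43.89 and 43.14 FPKM in Limch1_OE and at 54.61, 53.96 and 59.02 FPKM in Vector (-0.31, limma adjusted p = 0.00437). Mthfd2, a mitochondrial folate enzyme gene, was at 83.38, 91.24 and 84.15 FPKM in Limch1_OE and at 83.86, 86.37 and 87.65 FPKM in Vector, overlapping (0.00, limma adjusted p = 0.959). Polr1a fell by 0.27 while its partner Ptcd3 (-0.04) did not pass, and in 4 pairs, Emg1 (-0.02) with Phb2 (-0.08) among them, neither passed. The difference within a pair was not tested. The stretches between the annotated starts are shown for the 2 pairs that fell, for the one pair with opposite signs whose starts do not overlap and for one of the pairs in which neither passed, on the plus strand with the same 6 motifs in capitals.

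Xpc and Lsm3 (chr6:91515889-91515927): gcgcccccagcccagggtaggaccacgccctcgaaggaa
Emc3 and Fancd2 (chr6:113531653-113531681): gtaacgtcacgccacggcgcggctttgat
Mthfd2 and Mob1a (chr6:83325909-83326015): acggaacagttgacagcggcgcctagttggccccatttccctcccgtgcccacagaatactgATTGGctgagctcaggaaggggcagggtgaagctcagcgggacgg
Emg1 and Phb2 (chr6:124712179-124712335): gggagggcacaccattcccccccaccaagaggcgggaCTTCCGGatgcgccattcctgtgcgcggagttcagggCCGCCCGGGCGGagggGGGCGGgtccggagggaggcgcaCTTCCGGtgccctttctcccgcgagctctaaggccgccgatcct

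The stretches were 39, 29, 107 and 157 bases long, with 71.8%, 62.1%, 61.7% and 72.0% G and C. None of the 6 motifs lay in the stretches of the pairs that fell, but these were the shortest, so the comparison cannot show a difference in motifs. That of Mthfd2 and Mob1a held 1 CCAAT box, and that of Emg1 and Phb2 held GC boxes and 2 ETS matches.

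**Figure D5:**
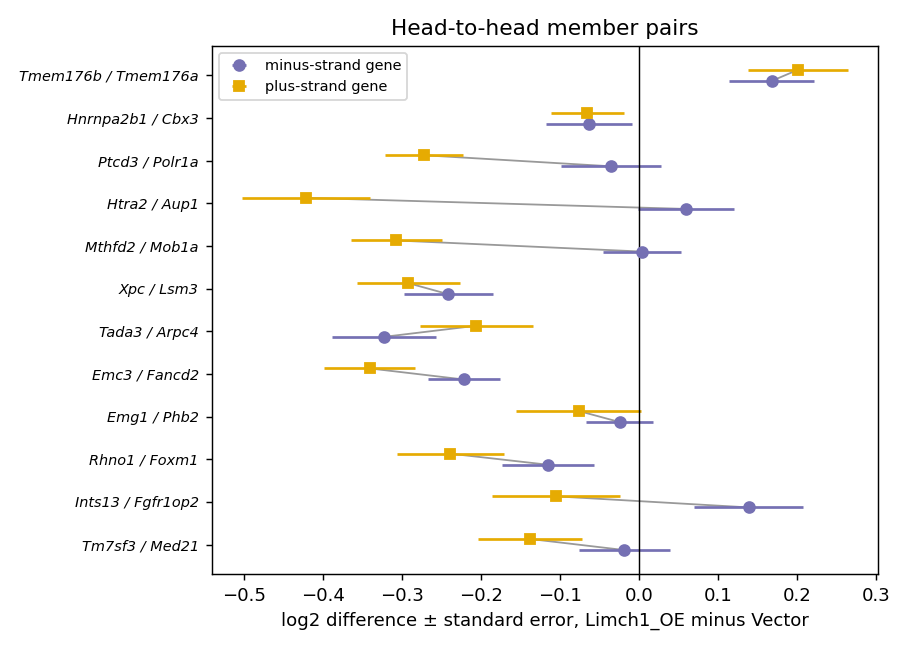
Log2 difference ± standard error (Limch1_OE minus Vector, log2(FPKM + 1) scale) of both genes in the 12 head-to-head pairs, the minus-strand gene as a purple circle and the plus-strand gene as a yellow square. Xpc with Lsm3 and Emc3 with Fancd2 lie left of 0 together, Tmem176b with Tmem176a lie right of it, and Aup1 stands at -0.42 with its partner Htra2 at 0.06.

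A RefSeq window from 250 bases before to 50 after the start was found for 214 of the 247 members, 1 window each. The GC box was in 72.0% of these, against 70.6% of 4777 windows of protein-coding genes of at least 10 FPKM on other chromosomes and 35.7% of all 32851 windows. The CCAAT box was in 35.5%, against 39.2% and 37.4%, the ETS motif in 21.03%, against 22.8% and 8.86%, the TATA box in 6.54%, against 6.13% and 13.6%, and the NRF1 motif in 1.87%, against 2.41% and 0.971%. The interferon element was in 5 windows (2.34%), against 3.35% and 3.44%, and 2 of the 5, Cul1 and Suclg2, belonged to members that fell. Motifs were read on both strands, no motif contains another, and adjoining matches may share letters. Members that fell and members not called had median promoter GC contents of 60.7% and 62.0%, median gene spans of 25.6 and 28.8 kb and median levels of 29.0 and 22.4 FPKM, the members that fell being the more abundant. A negative difference was seen in 97 of 119 plus-strand members and 97 of 128 minus-strand members.

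The table is by transcript, which bears on single members. All annotated principal transcripts were listed for 237 members, part of them for 8 and none for Chd4 and Dctn1. In 220 members 1 transcript held at least 50% of the sum. When each gene was represented by its most abundant transcript, 61 members were called lower and 4 higher, with a median of -0.14, and 59 of the 61 were among the 104. In 7 called members that transcript had the other sign (Tes, Cul1, Tmem176b, Kbtbd2, Brpf1, Lpcat3 and Mlf2). A gene of at least 1 FPKM overlapped 35 members on the opposite strand, among them Rnf181, Zyx, Epha1, Lrig1, Pcbp1, Cd9, Bcl2l13, Arf5, Wnk1 and Kdm5a, and their values are uncertain to that extent. Without them 88 members were called lower and 7 higher, in a comparison chosen after the data were seen. Reads of members with near-identical processed pseudogenes, such as Gapdh and Cycs, may be split in ways the sources do not describe.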

How the data were processed

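RNA sequencing measured mRNA in 6 libraries. The authors deposited FPKM per transcript, to 2 decimals. Per the submitters' processing notes, the tools were StringTie 2.2.1, featureCounts 2.0.1, STAR 2.7.10 and fastp 0.23.2, with mm10. The sources used here do not name the tool behind the FPKM, the annotation release, the use of strand or filters. Depth is unknown, so no counting interval is given.

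Groups follow the sample titles, since another label field numbers the gene and cell line consecutively. The 77865 transcripts were summed per gene and joined to GENCODE M21 (mm10), which matched 26033 of 26094 genes. The 11842 genes that reached 1 FPKM in 3 or more libraries were tested with limma 3.58.1 in R 4.3.3 (lmFit, eBayes with trend) on log2(FPKM + 1), two-sided, Benjamini-Hochberg adjusted over all tested genes, threshold 0.05. The scale understates the change of low genes. The code was tested on simulated data. Alternatives were pseudocounts, filters, scalings, the most abundant transcript, a replicate block and left-out libraries. Members, lists and tests were chosen with earlier results of these data known. Members were named by a fixed rule: the 12 lowest and 12 highest called (9 rose), the 6 most abundant, the 2 smallest p-values per list, all members of the growth factor and imprinted lists, neighbours of extremes and genes at the level limit. Others (such as Zyx, Ezh2, Cycs, Gapdh, the head-to-head pairs and further list examples) were chosen after their values were seen. Some members the rule names are not reported here; counts and medians include them.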

Additional observations from a re-analysis of the deposited data

How the results depend on the processing

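Of 870 values of the 58 members named by rule under 15 alternatives, 813 kept direction and side of the threshold, 50 lost the call, 6 gained one and 1 reversed: Tmem176b stood at -0.10 with its most abundant transcript. Against 104 members lower and 9 higher with a median of -0.14, the pseudocount of 5 gave a median of -0.12. Without the filter 83 were lower and 5 higher. The trimmed mean of M values gave 128 and 5 (median -0.18), the median ratio outside chromosome 6 set to 0 gave 128 and 5 (-0.18), and quantile normalization gave a median of -0.13. The most abundant transcript gave 61 and 4. With a member minimum of 5 FPKM 15 were higher (median -0.11), with 20 FPKM 67 were lower, and with no gene left out by name the median was -0.15. Leaving out 1 library gave 81 to 98 lower, 4 to 10 higher and medians of -0.15 to -0.14; the count of higher members dropped to 4 without Limch1_OE replicate 2 or Vector replicate 3 and to 5 without Vector replicate 1. The lowest 15 Mb segment had medians of -0.23 to -0.20 in these fits. By construction fewer libraries enter in the fits without a library, more genes with a minimum of 5 FPKM and fewer genes with 20 FPKM. Elsewhere the cause of a change was not tested. Replicate numbers did not pair the libraries (same-number correlations of -0.0017, 0.046 and 0.059), and the replicate block gave 98 lower and 9 higher. With 3 libraries a group, the smallest difference called among the members was -0.13.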
